A study of Ovis aries with 18 samples.

Results

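Transcripts that the growing oocyte makes and stores were followed through 10 genes in RNA sequencing of sheep blastocysts: the egg coat genes ZP2 and ZP3, the maternal complex genes NLRP5, TLE6, PADI6 and OOEP, the RNA-binding factor ZAR1, the secreted growth factors GDF9 and BMP15, and DPPA3. They were chosen by name as oocyte and maternal-effect genes. Of the 10 genes, 6 (ZP2, ZP3, NLRP5, TLE6, PADI6 and ZAR1) were found by symbol among the 20092 genes of the count table, and all 6 were among the 16488 genes that passed the count filter (15 counts or more in over 3 pools). GDF9, BMP15, OOEP and DPPA3 were not analysed here.

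The study asked whether methionine given to young rams changed gene expression in the embryos they sired. Blastocysts flushed from 7 superovulated Polypay ewes were grouped into 12 pools of 5 embryos by sire and dam, and each pool gave 1 library. The 6 control pools came from rams on a basal diet, with 2 pools each from Ram410, Ram423 and Ram444. The 6 methionine pools came from rams given the same diet with an added top-dress of 1.5 g rumen-protected methionine before puberty, with 4 pools from Ram424 and 1 each from Ram498 and Ram511. All rams were of the Polypay breed, and neither the ewes nor the embryos received the supplement. Each pool is named by its ram and its number within the ram. Dams of the pools were not given in the labels, so from them sire and dam cannot be told apart. The paper's design figure gives the ram and ewe of each mating and was not used here. The p-values over pools measure the spread between pools of which several share a sire. Total counts ranged from 1173289 to 1554651 in the control pools and from 1017847 to 2398589 in the methionine pools. At these depths 3 counts equalled 1.43 to 2.97 CPM (counts for every 1000000 in the library, scaled by trimmed mean of M-values, TMM, factors). This was taken as the lower limit of counting in a pool, and it sets no limit for background reads.

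The oocyte makes and stores messenger RNA while it grows, and the early embryo lives on that store until its own genome is switched on, during which most of the stored messages are degraded. By the blastocyst stage only remnants of most oocyte messages are expected, beside the transcripts of the newly formed trophectoderm and inner cell mass. The zona pellucida genes encode glycoproteins of the egg coat and are transcribed in the oocyte. NLRP5, TLE6 and OOEP encode proteins of the subcortical maternal complex, a structure of the egg cortex that the first cleavages need, and PADI6 is needed for the cytoplasmic lattices of the egg. GDF9 and BMP15 signal from the oocyte to its cumulus and granulosa cells. In bulk pools a lower level from fewer cells of a type and one from less RNA per cell cannot be told apart.

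Before the oocyte genes were compared, the pools were checked against their label as blastocysts, and 2 of the 12 stood apart. These were pool Embryo444_2, from a control ram, and pool Embryo511_1, the only pool of Ram511. KRT8, a keratin of the trophectoderm, was at 3893 to 11862 CPM in the other 10 pools but at 116 CPM in pool Embryo444_2 and 42.6 CPM in pool Embryo511_1. Its partner keratin KRT18 was at 696 to 2219 CPM in the 10 pools, 14.2 CPM in pool Embryo444_2 and 34.7 CPM in pool Embryo511_1. The trophectoderm list held 7 measured genes, with KRT8 the most abundant. Their sum was 5252 to 14350 CPM in the 10 pools (median, 8489), 224 CPM in pool Embryo444_2 and 194 CPM in pool Embryo511_1. The 3 measured inner cell mass genes summed to 157 to 567 CPM in the 10 pools, 68.0 CPM in pool Embryo444_2 and 131 CPM in pool Embryo511_1, most of it from the pluripotency factor POU5F1 in the 10 pools. POU5F1 was at 132 to 521 CPM in the 10 pools, 14.2 CPM in pool Embryo444_2 and 39.7 CPM in pool Embryo511_1. The other two did not follow it: PRDM14 was at 43.9 and 83.3 CPM in pools Embryo444_2 and Embryo511_1, above its 14.5 to 37.9 CPM in the 10 pools, and NANOG at 9.91 and 7.93 CPM was within 5.10 to 16.3 CPM. The 4 hypoblast markers, led by GATA6, summed to 417 to 952 CPM in the 10 pools, 233 CPM in pool Embryo444_2 and 276 CPM in pool Embryo511_1. Here too 1 gene carried the low sums, as GATA6 was at 249 to 801 CPM in the 10 pools, 38.9 CPM in pool Embryo444_2 and 66.4 CPM in pool Embryo511_1. GATA4 was higher in pool Embryo511_1, at 94.2 CPM, than in the 10 pools (18.2 to 44.3 CPM). PDGFRA was at 166 CPM in pool Embryo444_2, above its 96.3 to 155 CPM in the 10 pools, and at 115 CPM in pool Embryo511_1. SOX17, a hypoblast factor at low counts throughout, was at 0 counts in pool Embryo511_1. Besides the keratins, other trophectoderm genes were below their ranges in pools Embryo444_2 and Embryo511_1. CDX2 was at 2.83 and 7.93 CPM there (23.2 to 110 CPM in the 10 pools) and GATA2 at 4.25 and 3.97 CPM (33.4 to 86.1 CPM). TFAP2C was at 49.6 and 27.8 CPM (326 to 830 CPM) and TEAD4 at 7.79 and 10.9 CPM (25.5 to 92.4 CPM). The exception in this list was ELF5, within its range of 17.1 to 128 CPM in both pools, at 29.0 and 66.4 CPM.

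The same pools were set apart across the whole table. The median Spearman correlation of a pool with the other 11, across genes, was 0.582 for pool Embryo444_2 and 0.600 for pool Embryo511_1, against 0.820 to 0.857 for the other 10. Pool Embryo511_1 was also the shallowest library and had 1158 genes at 0 counts, whereas the other pools had 517 to 720. The diet and ram tests of the oocyte genes were therefore repeated without pools Embryo444_2 and Embryo511_1, a choice made after the data were seen.

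ZP3, a glycoprotein of the egg coat, was counted at low levels in every pool except Embryo511_1. Its raw counts in the control pools were 23 and 13 for Ram410, 16 and 16 for Ram423, and 30 and 39 for Ram444. In the methionine pools they were 40, 45, 38 and 25 for Ram424, 22 for Ram498 and 414 for Ram511. Scaled for depth, ZP3 was at 9.21 to 27.6 CPM in 11 pools and at 410.4 CPM in pool Embryo511_1. That pool lay 14.9 times above the next highest pool, Embryo444_2, and 22.5 times above the median of the 12. Only 16 of the tested genes (0.0970%) stood at least as far above their second pool in any library. At a ratio of 10 or more there were 40 such genes (0.243%), of which 24 were highest in pool Embryo511_1.

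ZP2, a coat protein that the egg cleaves after fertilization, had the same highest pool with a smaller excess. Its counts were 47 and 44 for Ram410, 39 and 85 for Ram423, and 42 and 50 for Ram444 among the controls. Among the methionine pools they were 99, 76, 60 and 108 for Ram424, 59 for Ram498 and 207 for Ram511. On the CPM scale ZP2 was at 27.9 to 54.5 CPM in 11 pools and at 205 CPM in pool Embryo511_1, which was 3.76 times the next highest pool (Embryo423_2). As many as 354 of the tested genes (2.15%) had a highest pool at least as far above the second. Leaving out pools Embryo444_2 and Embryo511_1, ZP2 varied less across pools than the other 5 oocyte genes, with a coefficient of variation of 23.9% against 38.2% for ZP3 and a median of 33.6% over all genes tested.

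**Figure D1:**
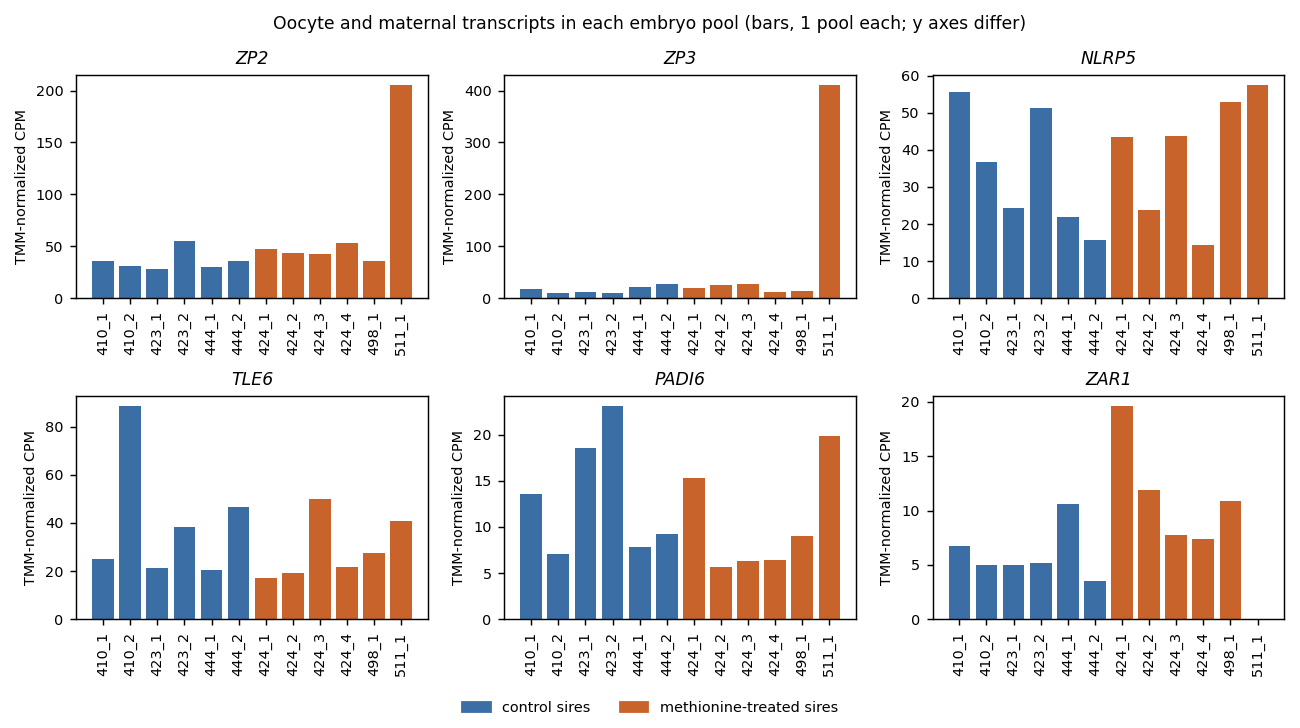
Levels of the 6 measured oocyte genes in each embryo pool, 1 panel a gene, with TMM-scaled CPM on linear axes that start at 0 and differ between panels. Each bar is 1 pool, coloured by the diet of the sire. ZP3 and ZP2 rise to 410.4 and 205 CPM in pool Embryo511_1, where ZAR1 is at 0 counts, while NLRP5, TLE6 and PADI6 show no single pool of this kind.

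The genes that flank ZP2 and ZP3 were examined to see whether whole neighbourhoods were high in pool Embryo511_1. Gene order was taken from the RefSeq annotation of assembly ARS-UI_Ramb_v3.0, which is a later build than the one the authors aligned to, so no coordinates are given. The dynein gene DNAH3, on one side of ZP2, was at 241 CPM in pool Embryo511_1 within its range of 162 to 283 CPM in the 10 pools. ANKS4B, on the other side, was at 13.9 CPM in that pool and at 11.3 to 33.1 CPM in the 10. Of the neighbours of ZP3, SSC4D was at 29.7 CPM in pool Embryo511_1 (11.3 to 37.6 CPM in the 10 pools) and the ubiquitin ligase gene DTX2 at 21.8 CPM (16.3 to 246 CPM). LDAF1, which overlaps ZP2 in that annotation, was not analysed here. None of the 4 neighbours measured was higher in pool Embryo511_1 than in every other pool.

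Among the maternal complex genes no pool stood apart to this degree. NLRP5, a scaffold of the subcortical maternal complex, had counts of 22 to 80 in the control pools and 29 to 91 in the methionine pools. Its level was lowest in pool Embryo424_4 (14.3 CPM) and highest in pool Embryo511_1 (57.5 CPM), closely followed by pool Embryo410_1 (55.7 CPM). Both pools of Ram444 were low for NLRP5, at 22.0 and 15.6 CPM, whereas the 4 pools of Ram424 spread from 14.3 to 43.8 CPM. TLE6, a Groucho-family member of the complex, had counts of 29 to 125, and its highest level was in pool Embryo410_2 (88.5 CPM) against 24.8 CPM in the other pool of the same ram. It was the most variable of the 6 genes over the 10 pools, with a coefficient of variation of 66.7%. PADI6, a peptidylarginine deiminase of the egg, was counted only 9 to 36 times a pool. Its 2 highest pools were Embryo423_2 (23.1 CPM) and Embryo511_1 (19.8 CPM), and its lowest was Embryo424_2 (5.66 CPM). For all 3 genes the pools of the 2 diets overlapped.

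ZAR1, which binds stored oocyte messages and takes part in holding back their translation, was the least counted of the 6 genes, with 157 counts in all. The control pools held 9 and 7 counts for Ram410, 7 and 8 for Ram423, and 15 and 5 for Ram444. The Ram424 pools held 41, 21, 11 and 15 counts, the Ram498 pool 18 and the Ram511 pool 0. ZAR1 was thus lowest in the pool in which ZP2 and ZP3 were highest, although a count of 0 at that depth allows a level of up to 2.97 CPM, close to the 3.54 CPM of pool Embryo444_2. FRYL overlaps ZAR1 in the annotation, and since the strand setting of the counts was not stated, reads of these genes may not be fully separated. FRYL itself reached 309 CPM in Embryo511_1 and 326 CPM in Embryo444_2, above its 128 to 215 CPM in the 10 pools.

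The highest pool was not the same for all 6 genes. ZP2, ZP3 and NLRP5 had their highest level in pool Embryo511_1, that is 3 of 6 genes, against 21.6% of all genes tested. The 6 genes summed to 734 CPM in pool Embryo511_1, to 138 CPM in pool Embryo444_2 and to 109 to 183 CPM in the 10 pools. Of the 2 pools low for KRT8, KRT18, POU5F1 and GATA6, Embryo511_1 thus lay above the range of the 10 pools in this sum and Embryo444_2 within it. ZP3, at 410.4 CPM, and ZP2, at 205 CPM, made up most of the sum in pool Embryo511_1. NLRP5, at 57.5 CPM there, was just above its 14.3 to 55.7 CPM in the 10 pools. TLE6 and PADI6 were within their ranges, and ZAR1 was at 0 counts. Over the 12 pools the log2 levels of ZP2 and ZP3 had a Pearson correlation of 0.85, and over the 10 pools of 0.07, a description of pools that share sires.

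Markers of other cells that a flushed pool could hold were tallied in the same way. The 4 measured sperm genes summed to 1085 CPM in pool Embryo511_1, 50.3 CPM in pool Embryo444_2 and 29.3 to 106 CPM in the 10 pools. Of that sum 1008 CPM was TNP1, a transition protein of the spermatid nucleus, with 1017 counts in pool Embryo511_1 and 2 to 22 counts in each of the others. The other sperm genes did not follow TNP1 in that pool: AKAP4 (53.5 CPM) and ODF1 (3.97 CPM) were within their ranges in the 10 pools, and SMCP was at 18.8 CPM against at most 17.6 CPM. The 4 leukocyte genes summed to 334 CPM in pool Embryo511_1, where PTPRC (CD45) was at 254 CPM against 40.2 to 76.5 CPM in the 10 pools. The other leukocyte genes did not rise with it: CSF1R (67.4 CPM) and CD74 (10.9 CPM) were within their ranges, and CD68 was at 1.98 CPM, below its 8.60 to 38.8 CPM. CD68 had 2 counts in that pool, under the limit of 3 counts. Pool Embryo410_2 had the highest leukocyte sum, 727 CPM, of which the macrophage receptor gene CSF1R made up 639 CPM. The 5 cumulus and granulosa genes, led by the hyaluronan synthase HAS2, summed to 238 CPM in pool Embryo444_2, 130 CPM in pool Embryo511_1 and 56.4 to 157 CPM in the 10 pools. In pools Embryo444_2 and Embryo511_1 AMHR2 was at 44.6 and 37.7 CPM (at most 25.5 CPM in the 10 pools). TNFAIP6 was at 46.7 and 36.7 CPM (at most 23.4 CPM). HAS2, at 106 CPM in pool Embryo444_2, was above its 35.0 to 66.8 CPM. PTX3, at 2.97 CPM in pool Embryo511_1, was below its 4.23 to 17.3 CPM, but this was 3 counts, at the limit. FOXL2 was within its range in both pools. The 4 uterine epithelium genes, of which ESR1 was the most abundant, summed to 104 CPM in pool Embryo444_2, 79.3 CPM in pool Embryo511_1 and 54.3 to 89.7 CPM in the 10 pools. In pool Embryo444_2 FOXA2 was at 39.6 CPM, above its 0.710 to 9.21 CPM in the 10 pools, while ESR1 and PGR were within their ranges. MSX1, at 0.708 CPM there, was below its 2.95 to 14.1 CPM, but this was 1 count, under the limit of 3 counts. Over the 10 pools the median was 59.1 CPM for PTPRC, 38.6 CPM for ESR1 and 29.1 CPM for AKAP4. It was 3.57 CPM for TNP1 and 2.42 CPM for ODF1. Medians of the 6 oocyte genes over these pools ran from 7.57 CPM for ZAR1 to 40.2 CPM for NLRP5. How much of such levels was background was not tested. The part of these cell types in the levels of ZP2 and ZP3 was not tested.

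No oocyte gene passed the test for paternal diet. With edgeR's quasi-likelihood test, 0 of the 6 genes and 0 of all 16488 (0%) had a false discovery rate (FDR, Benjamini-Hochberg) below 0.05. An unadjusted threshold of 0.05 was passed by 2 of the 6 genes and by 1306 of all genes (7.92%). A likelihood-ratio test called 5 genes and DESeq2 called 16, with none of the 6 among the former. DESeq2 gave no p-value for ZP2 and ZP3, and called none of the other 4. Without pools Embryo444_2 and Embryo511_1 the quasi-likelihood test called 1 gene (0.00607%) and 0 of the 6, and 1959 genes (11.9%) but 0 of the 6 passed the unadjusted threshold. In no oocyte gene were the pools of the 2 diets fully separated, and this was so in 58 of all genes (0.352%). The median log2 fold change of the 6 genes was 0.45 beside 0.01 over all genes tested, and it was 0.10 beside -0.03 when pools Embryo444_2 and Embryo511_1 were left out.

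ZP3 averaged 16.2 ± 7.27 CPM in control pools and 84.6 ± 160 CPM in methionine pools (SD, n = 6 each). Its fitted log2 fold change, methionine over control, was 2.35 with a standard error of 0.81 (FDR = 0.584). The unadjusted p of ZP3 was 0.0102. Without pools Embryo444_2 and Embryo511_1 the means were 13.9 ± 5.19 and 19.4 ± 6.72 CPM (SD, n = 5 each), and the log2 fold change was 0.47 with a standard error of 0.35 (FDR = 0.617).

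ZP2 averaged 35.7 ± 9.71 CPM in control pools and 71.1 ± 66.0 CPM in methionine pools (SD, n = 6 each). The log2 fold change was 0.98 with a standard error of 0.41 (FDR = 0.607), at an unadjusted p of 0.0282. Leaving out the same pools gave 35.7 ± 10.9 and 44.3 ± 6.49 CPM (SD, n = 5 each), a log2 fold change of 0.30 with a standard error of 0.24 (FDR = 0.658). Leaving out Embryo511_1 alone gave log2 fold changes of 0.31 for ZP2 and 0.26 for ZP3, whereas leaving out Embryo444_2 alone gave 0.97 and 2.57. Leaving out the 4 pools of Ram424 raised them to 1.75 for ZP2 (FDR = 0.274) and 3.70 for ZP3 (FDR = 0.139). In a two-sided exact permutation test of the mean of log2(CPM + 1) over all assignments of the 12 pools to the diets, the difference was 0.69 for ZP2 (p = 0.0498) and 1.02 for ZP3 (p = 0.201). Over the 10 pools it was 0.33 for ZP2 (exact p = 0.135) and 0.45 for ZP3 (exact p = 0.183). These values of p were not adjusted over the 6 genes, and for ZP2 8 of the 12 fits that left out 1 pool gave p of 0.05 or more, the pools left out being Embryo410_1, Embryo410_2, Embryo423_1, Embryo424_1, Embryo424_4, Embryo444_1, Embryo444_2 and Embryo511_1. Of these, Embryo511_1 was the pool without which the difference was smallest, at 0.33. Over the means of the 6 rams, where the exact test has 20 assignments and cannot go below p = 0.1, p was 0.2 for ZP2 and 0.4 for ZP3.

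The maternal complex genes were tested in the same way. NLRP5 was at 34.3 ± 16.5 CPM in control pools and 39.3 ± 16.9 CPM in methionine pools (SD, n = 6 each; log2 fold change 0.19, FDR = 0.916), and the sign turned to -0.11 without the 2 pools. TLE6 was at 40.1 ± 25.9 and 29.4 ± 13.2 CPM (log2 fold change -0.46, FDR = 0.778), with a log2 fold change of -0.53 over the 10 pools (FDR = 0.642). Without pool Embryo410_2, where TLE6 was highest, its log2 fold change was -0.060. PADI6 was at 13.2 ± 6.47 and 10.4 ± 5.82 CPM (log2 fold change -0.36, FDR = 0.842), with 14.0 ± 6.89 and 8.55 ± 3.99 CPM when the 2 pools were left out (log2 fold change -0.71, FDR = 0.525). Over the 12 pools the SD of both diets was larger than the difference of the means in each of these 3 genes.

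In ZAR1 the difference between the diets rose when pools Embryo444_2 and Embryo511_1 were left out. Over 12 pools it was at 6.01 ± 2.49 CPM in controls and 9.58 ± 6.44 CPM in methionine pools (SD, n = 6 each; log2 fold change 0.70, standard error 0.54, FDR = 0.753). Over the 10 pools the means were 6.50 ± 2.44 and 11.5 ± 4.93 CPM (SD, n = 5 each; log2 fold change 0.81, standard error 0.41, FDR = 0.441). With the ram as a random effect in limma, the log2 fold change over the 12 pools was 0.13. On the log2(CPM + 1) scale the difference was 0.23 over 12 pools (exact permutation p = 0.797) and 0.71 over 10 pools (p = 0.0317). Over the means of all 6 rams it was -0.37. Over the means of the 5 rams left among the 10 pools it was 0.59 (exact permutation p = 0.2, from only 10 assignments). Of the 5 methionine pools among the 10, 4 came from Ram424, and leaving out pool Embryo424_1 alone brought the difference on this scale over the remaining 11 pools to -0.053.

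**Figure D2:**
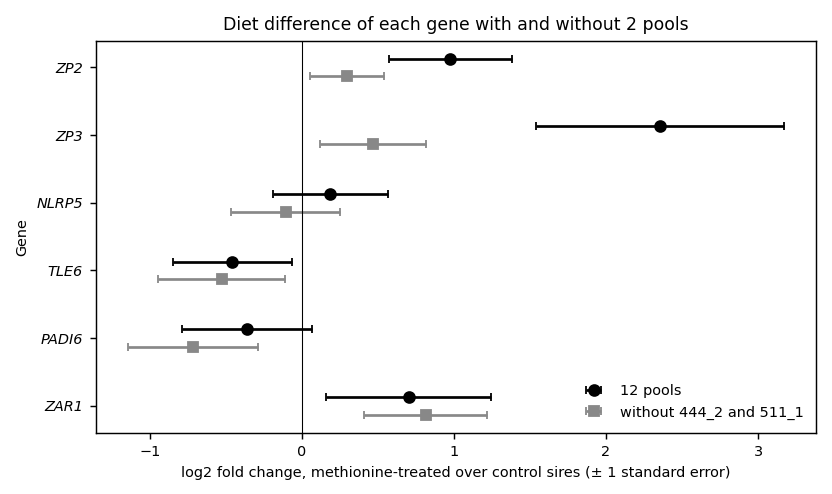
Log2 fold change of each oocyte gene, methionine over control, from edgeR's quasi-likelihood fit, with bars of 1 standard error on either side, for all 12 pools and for the 10 pools without Embryo444_2 and Embryo511_1. ZP3 moves from 2.35 to 0.47 and ZP2 from 0.98 to 0.30 when these pools are left out, and no gene has an FDR below 0.05 in either fit.

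Since stored transcripts come from the egg and not from the sperm, differences among families were examined as well. An F test over the 6 rams called 690 of 16488 genes (4.18%) at an FDR below 0.05, and ZP2 (FDR = 0.0115) and ZP3 (FDR = 8.48e-05) were among them. NLRP5 (FDR = 0.386), TLE6 (FDR = 0.662), PADI6 (FDR = 0.371) and ZAR1 (FDR = 0.181) were not. The rams Ram498 and Ram511 had 1 pool each, which the fit assumes to vary like the pools of other rams. Both calls were lost without pool Embryo511_1, where FDR was 0.767 for ZP2 and 0.560 for ZP3 and only 3 genes of the table were called. Without Embryo444_2 as well, FDR was 0.747 for ZP2 and 0.635 for ZP3. Among the 4 rams with at least 2 pools, 0 genes were called by the same test, with 2489 below an unadjusted p of 0.05, and FDR was 0.657 for ZP2 and 0.452 for ZP3. Mean ZP3 over those 4 rams ran from 10.8 CPM in Ram423 and 13.3 CPM in Ram410 to 20.9 CPM in Ram424 and 24.4 CPM in Ram444. For ZP2 the corresponding means were 41.2, 33.3, 46.4 and 32.6 CPM.

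Other oocyte genes were mixed in pool Embryo511_1, some above and some below their range in the 10 pools. Of 8 listed egg surface genes 2 were tested, and neither passed the unadjusted threshold for diet over 12 pools (7.92% of all genes) or over 10 pools (11.9% of all genes). ZP4, a further zona protein, was at 45.6 CPM in pool Embryo511_1 and at 11.8 to 36.0 CPM in the 10 pools (log2 fold change with diet 0.22, FDR = 0.890). ASTL, the egg protease that cleaves ZP2, was at 13.9 CPM in pool Embryo511_1 and 12.0 to 20.5 CPM in the 10 pools. IZUMO1R, the egg receptor for sperm known as Juno, fell short of the count filter, with 33 counts in pool Embryo511_1 and 0 to 10 in the others.

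In the list of subcortical complex and oocyte NLRP genes, 0 of 5 tested genes passed the unadjusted threshold for diet over 12 pools (7.92% of all genes) or over 10 pools (11.9% of all genes). All 5 log2 fold changes were negative, from -0.44 to -0.06 (median, -0.12), as were 8163 of the 16488 genes tested. ZBED3 was the 1 gene of the list that was highest in pool Embryo511_1, at 47.6 CPM against 6.88 to 33.3 CPM in the 10 pools. NLRP9 was at 68.4 CPM in pool Embryo511_1 within 36.8 to 109 CPM in the 10 pools. NLRP14 was at 20.8 CPM there, below its 35.4 to 61.6 CPM in the 10 pools, while pool Embryo444_2 had 63.7 CPM. NLRP2 was at 31.7 CPM within 22.7 to 52.7 CPM. Reads may be shared among these related genes.

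Regulators of stored messages summed to 791 CPM in pool Embryo511_1, 561 CPM in pool Embryo444_2 and 402 to 521 CPM in the 10 pools. CPEB1 and CCNB3 made up 393 CPM of the sum in pool Embryo511_1 (69.3 to 145 CPM in the 10 pools), and the other 11 genes, at 399 CPM, were within 329 to 425 CPM. In pool Embryo444_2 the split was the reverse. CPEB1 and CCNB3, at 66.5 CPM, were below their range there, and the other 11 genes, at 494 CPM, were above theirs. All 13 genes of this list were tested, 3 were highest in pool Embryo511_1 (21.6% of all genes) and 5 in pool Embryo444_2 (17.2% of all genes), and 1 passed the unadjusted threshold for diet (7.92% of all genes). Over the 10 pools, where 11.9% of all genes passed it, 0 of the 13 did. That gene was CCNB3, a meiotic cyclin, at 150 CPM in pool Embryo511_1 and 25.5 to 73.6 CPM in the 10 pools (log2 fold change 0.91, standard error 0.34, FDR = 0.585, and 0.62 over the 10 pools). CNOT6L, a deadenylase of maternal messages, was at 51.6 CPM in pool Embryo511_1, below its 59.3 to 99.9 CPM in the 10 pools, and TUT7, a uridylase that marks messages for decay, was at 78.3 CPM within 55.0 to 126 CPM. CPEB1, which controls the poly(A) tails of stored messages, was the 1 gene of the list called among rams (FDR = 0.0280; 4.18% of all genes were called, and only 3 genes without Embryo511_1), with 245 counts in pool Embryo511_1 and 31 to 169 counts in the others. ZAR1L, the relative of ZAR1, was highest in pool Embryo444_2 at 50.3 CPM, above its 6.37 to 26.3 CPM in the 10 pools.

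Among oocyte transcription factors 1 of 4 tested genes passed the unadjusted threshold for diet, over the 12 pools (7.92% of all genes) and over the 10 pools (11.9% of all genes). BNC1, a zinc finger factor of germ cells, had a log2 fold change of -0.83 with a standard error of 0.25 (FDR = 0.584), and -0.73 without the 2 pools. NOBOX was at 32.7 CPM in pool Embryo511_1 within 6.21 to 40.6 CPM, and LHX8 at 17.8 CPM within 5.71 to 20.9 CPM. Of 5 tested maternal chromatin and imprint factors, 1 passed it over the 12 pools (7.92% of all genes): SMARCA4, the remodelling ATPase BRG1, had a log2 fold change of 0.60 with a standard error of 0.23 (FDR = 0.585), and 0.45 over the 10 pools. Over the 10 pools, where 11.9% of all genes passed, 3 of the 5 did (SMARCA4, TRIM28 and, with a negative fold change, ZFP57). TRIM28, which guards imprints with its zinc finger partners, was low in both unusual pools, at 26.2 CPM in Embryo444_2 and 25.8 CPM in Embryo511_1 against 126 to 603 CPM in the 10 pools. Its log2 fold change with diet was 1.08 with a standard error of 0.55 (FDR = 0.659), and 1.09 over the 10 pools with a standard error of 0.32 (FDR = 0.262).

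Genes listed for GDF9 and BMP15 signalling could be followed, although GDF9 and BMP15 themselves were not analysed here. Of 8 tested genes of this list, 0 passed the unadjusted threshold for diet over 12 pools (7.92% of all genes), and 2 over the 10 pools (11.9% of all genes). These were SMAD2, with a log2 fold change of 0.61, and ACVR1B, with -0.53. TGFBR1, the type I receptor used by GDF9, was at 57.5 CPM in pool Embryo511_1 within 43.9 to 160 CPM in the 10 pools (log2 fold change 0.50, FDR = 0.686). ACVR1B was at 90.6 and 102 CPM in pools Embryo444_2 and Embryo511_1, above 35.4 to 67.7 CPM in the 10 pools. SMAD5, a transducer of BMP signals, was at 119 CPM in pool Embryo511_1 against 26.4 to 52.6 CPM in the 10 pools. All the lists together held 0 genes at an FDR below 0.05 for diet, over 12 and over 10 pools.

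The 3 genes most like each oocyte gene over the 12 pools, by Pearson's r of log2(CPM + 1), were found as a description of how the pools sort. For ZP2 they were SPAG1 (r = 0.97), MYO1D (r = 0.96) and RAB3GAP1 (r = 0.96), and for ZP3 ITFG2 (r = 0.97), GPATCH3 (r = 0.96) and CCDC9B (r = 0.96). All 6 of these genes were raised in pool Embryo511_1, for example MYO1D, at 655 CPM there against a median of 97.7 CPM in the 10 pools. ZAR1 was closest to GID8 (r = 0.97), DENND4C (r = 0.96) and SRSF4 (r = 0.95), each low in pool Embryo511_1, GID8 at 24.8 CPM against a median of 97.0 CPM. NLRP5 was most like CBFA2T3 (r = 0.86), TLE6 most like RHOBTB3 (r = 0.89) and PADI6 most like GLT8D1 (r = 0.86). Ranked by Spearman's rho, or over the 10 pools, 0 of the 3 leading genes were the same for any of the 6 oocyte genes. The pools share sires and an amplification step, and no test was made of these likenesses.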

How the data were processed

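The authors pooled 5 blastocysts a sample, amplified whole-transcriptome RNA, trimmed reads with Trimmomatic, aligned them with STAR and deposited raw counts per gene, as whole numbers for 20092 genes in 12 pools. The paper describes no molecular identifiers for these reads, so counts cannot be taken as independent molecules. Limits drawn from counts cover counting error only. From these counts, TMM factors, CPM and tests were computed with edgeR 4.0.16 in R 4.3.3, over genes of 15 counts or more in over 3 pools. Diet was fitted alone, and the 6 rams in a second model, since diet is nested in ram. Standard errors were derived from the fold change and its F statistic. Exact permutation tests used log2(CPM + 1). DESeq2 1.42.0 and limma 3.58.1 gave alternatives. The steps were tested on simulated data, in which pools were independent and varied less than here. That test does not show how the steps perform on pools that share sires.

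The 10 genes were listed by name, and this and the other lists were chosen with earlier results of these data known. The 6 oocyte genes in the table are described, with the 2 most abundant and the 2 of smallest diet p of each other list of oocyte genes, and the 3 genes most like each oocyte gene; further genes (CPEB1, IZUMO1R, ZBED3, ZFP57, SMAD2 and the marker genes) were named after their values were seen. Of the 20092 symbols, 17925 matched RefSeq of ARS-UI_Ramb_v3.0, used for gene order only. Sperm methylation counts, on Oar_rambouillet_v1.0, were not used here. Pools Embryo424_1 and Embryo424_2 were the most alike (Spearman correlation 0.955, chi-square per degree of freedom 3.29 against 8.29 for the next pair). Amplified reads can differ by more than counting noise, so this does not show that they are independent. They were counted separately, as labelled, and summed in an alternative.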

Additional observations from a re-analysis of the deposited data

Results flagged for a closer look

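In 38 sets of 6 pools of a diet, covering the oocyte genes and the summed lists, the gap between the highest or lowest pool and its nearest neighbour on the log2(CPM + 1) scale was divided by the range, and a value above Dixon's critical value for 6 samples marked an outlying pool. Chance marks about 1 in 20 independent sets, but these sets reuse the same 12 pools, so that rate gives no benchmark for the count. Here 11 of the 38 were marked, of which 8 were also marked on the CPM scale. Among methionine pools, Embryo511_1 was set apart upward for ZP2 (0.773), ZP3 (0.785) and the summed genes of maternal mRNA control and meiotic arrest (0.701). It was also set apart upward for the summed leukocyte markers (0.689) and the summed sperm markers (0.878). The same pool was set apart downward for ZAR1 (0.703) and the summed trophectoderm markers (0.837). The ZAR1 mark rests on a count of 0 and is lost when that pool is set to the level of 3 counts (0.453). On the CPM scale it is lost too, as are both trophectoderm marks. Among control pools, Embryo444_2 was set apart downward for the summed trophectoderm markers (0.796) and inner cell mass markers (0.849). Pool Embryo423_2 was high for ZP2 among controls (0.646), at 54.5 CPM against a next value of 35.4 CPM, and pool Embryo410_2 was high for the summed leukocyte markers (0.681). The part of other cell types in these values was not tested.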

How the results depend on the processing

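No paired analysis was possible because the pool numbers in the labels count pools within a ram and name no animal or day shared by the diets. For diet, the genes called went from 0 to 5 with a likelihood-ratio test, 16 with DESeq2 and 1 without pools Embryo444_2 and Embryo511_1, with 0 oocyte genes in each (DESeq2 gave ZP2 and ZP3 no p-value), and they stayed at 0 (0 to 0) when any 1 pool or ram was left out. For rams, 690 genes became 3254 with a likelihood-ratio test (which also called ZAR1, FDR = 0.0471), 325 with pools Embryo424_1 and Embryo424_2 summed, 77 without pools Embryo444_2 and Embryo511_1 and 0 over the 4 rams with at least 2 pools. Leaving out 1 pool gave 3 (without Embryo511_1) to 3821 (without Embryo444_1) genes, with 2089 without Embryo444_2, 1049 without Embryo498_1, 452 without Embryo410_2, and 299, 305, 397 and 386 without each Ram424 pool. The 2 oocyte genes called became 0 over the 4 rams, 0 without both pools, and 0 to 2 when 1 pool was left out (0 without Embryo511_1).

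In exact permutation tests, the ZP2 difference was 0.65 with a pseudocount of 5 (p = 0.0519), 0.60 scaled by library size (p = 0.141), 0.33 without both pools (p = 0.135), 0.76 with pools Embryo424_1 and Embryo424_2 summed (p = 0.0584) and 0.33 to 0.83 leaving out 1 pool (p = 0.0173 to 0.130). For ZAR1 it was 0.71 without both pools (exact p = 0.0317) and -0.053 to 0.82 leaving out 1 pool (exact p = 0.0152 without Embryo511_1). For NLRP5 it was -0.14 without both pools and -0.000755 to 0.44 leaving out 1 pool. Log2 fold changes turned sign for NLRP5 (-0.11 without both pools, and -0.11 to 0.69 leaving out 1 pool or ram, lowest without Ram444), PADI6 (-0.62 to 0.13, above 0 without Ram423 and, at 0.11, without Ram424) and ZAR1 (-0.040 to 0.94, lowest without Ram424). Leaving out 1 pool or ram gave 0.31 to 1.75 for ZP2, 0.26 to 3.70 for ZP3 (lowest without Embryo511_1, highest without Ram424 for both) and -0.68 to -0.060 for TLE6 (nearest 0 without Embryo410_2). With pools summed per ram the fold changes were 1.44 for ZP2 and 3.22 for ZP3, and with the ram as a random effect in limma 0.75 and 1.08. In all, 157 of 162 alternative fold changes kept their sign, and FDR of an oocyte gene for diet was at least 0.139. The cause of these shifts was not tested.

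Depth limits PADI6 and ZAR1 most, with at most 36 and 41 counts a pool. Amplification of 5 embryos, 1 pool for 2 of the rams and dams that the labels do not give limit every comparison. The sperm methylation comparison and its alternatives, and levels per kilobase, were not run, since no gene table of the build of the files was used here.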
